A study of Homo sapiens with 6 samples.

Results

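The epidermal growth factor (EGF) receptor family was examined through 8 genes, the receptors EGFR, ERBB2 and ERBB3 and the ligands AREG, EREG, HBEGF, TGFA and BTC. They were chosen by gene name from the 38648 listed genes and gene copies. Each name was listed once, and all 8 passed the filter on low counts. HK-2, the source of the libraries, is an immortalized epithelial line from the human proximal tubule. All cells carried a lentivirus and had received a single X-ray dose of 8 Gy, and RNA was collected at day 7. Cells of the IR+NC-LV group (n = 3) carried the negative control lentivirus, and cells of the IR+PR-LV group (n = 3) carried the PRDM16 overexpression lentivirus. Unirradiated cells were not analysed here, so the data hold no comparison with and without irradiation. The transduced cells had been selected with puromycin, and the comparison addressed what PRDM16, a zinc finger transcription regulator, changes in irradiated tubular cells.

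The receptors of this family are tyrosine kinases that sit in the cell membrane and pair when a ligand binds. EGFR binds each of the 5 ligands, ERBB2 binds none and acts as a partner, and ERBB3 has a weak kinase and recruits PI3-kinase when paired. The ligands are made as membrane-anchored precursors and are cut loose by metalloproteases. In the kidney tubule, EGFR signalling is known for its part in epithelial repair after injury and, when prolonged, in fibrosis.

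EREG, AREG and BTC lie near each other on chromosome 4 in the files' coordinates (hg38). EREG spans 74365145 to 74388749 and AREG spans 74445136 to 74455005, both on the plus strand, and BTC spans 74744759 to 74794718 on the minus strand. HBEGF lies on chromosome 5 (140332843 to 140346603, minus strand) and TGFA on chromosome 2 (70447284 to 70553826, minus strand). EGFR lies on chromosome 7 (55019017 to 55211628), ERBB2 on chromosome 17 (39688094 to 39728660) and ERBB3 on chromosome 12 (56080108 to 56103505), all on the plus strand. The 250 bases upstream of the gene start were read from RefSeq (GRCh38) for the 6 members whose start there matched the files, and 4 are shown. EREG and AREG are the chromosome 4 ligands of high level, TGFA is the ligand with the lowest unadjusted p between the groups, and the EGFR window lies under an antisense transcript described later. Capitals mark every match, on either strand, to the core promoter box TATAAA, to the cyclic AMP response element TGACGTCA, to the AP-1 site written TGANTCA, to the Sp1-type box GGGCGG or to the NF-Y-type box CCAAT, and no marked matches overlap.

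EREG (chr4:74364895-74365144, plus strand): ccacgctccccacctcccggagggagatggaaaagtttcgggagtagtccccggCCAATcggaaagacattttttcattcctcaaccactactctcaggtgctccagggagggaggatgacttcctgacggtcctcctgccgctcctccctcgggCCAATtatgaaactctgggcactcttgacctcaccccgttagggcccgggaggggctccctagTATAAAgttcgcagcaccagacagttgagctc
AREG (chr4:74444886-74445135, plus strand): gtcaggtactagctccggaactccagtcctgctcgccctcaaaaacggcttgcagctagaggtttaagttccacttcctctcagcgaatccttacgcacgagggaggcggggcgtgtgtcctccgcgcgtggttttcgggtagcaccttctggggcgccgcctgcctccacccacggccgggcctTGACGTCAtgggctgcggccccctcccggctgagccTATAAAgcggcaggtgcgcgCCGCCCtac
TGFA (chr2:70553827-70554076, minus strand): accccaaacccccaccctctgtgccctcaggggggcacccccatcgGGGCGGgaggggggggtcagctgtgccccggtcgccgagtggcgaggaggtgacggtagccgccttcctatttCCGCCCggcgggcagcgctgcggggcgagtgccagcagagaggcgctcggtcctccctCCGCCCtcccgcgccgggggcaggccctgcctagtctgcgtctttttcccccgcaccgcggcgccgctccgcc
EGFR (chr7:55018767-55019016, plus strand): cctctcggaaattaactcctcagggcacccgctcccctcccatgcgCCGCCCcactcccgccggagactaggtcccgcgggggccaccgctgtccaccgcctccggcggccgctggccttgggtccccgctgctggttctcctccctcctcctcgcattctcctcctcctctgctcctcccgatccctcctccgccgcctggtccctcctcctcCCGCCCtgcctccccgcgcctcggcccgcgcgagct

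The windows of EREG and AREG each held TATAAA, beginning 32 and 29 bases before the start. Among all 35116 windows of this length, 10.7% held these letters. AREG also held TGACGTCA 65 bases before its start, present in 1.65% of all windows, and 1 GGGCGG, present in 42.6%. EREG held CCAAT at 2 places, and 32.0% of all windows held it at least once. TGFA held GGGCGG at 3 places and EGFR at 2, and neither window held TATAAA. The EGFR and TGFA windows had a GC content of 73.6% and 75.6%, the AREG window 65.2% and the EREG window 58.0%, and the median over all windows was 58.0%. HBEGF, not printed, held GGGCGG at 5 places, and ERBB2 held TGANTCA and CCAAT once each. An exon of PGAP3 on the minus strand (39687834 to 39688057) covers 214 bases of the ERBB2 window. Both ERBB2 matches, TGANTCA 222 and CCAAT 243 bases before the start, lie inside this exon. TGANTCA was present in 6.57% of all windows. A match describes the letters and is not a measured binding site.

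The libraries held between 13407074 and 28540041 counts, and 3 counts, the limit that a count of 0 allows, corresponded to between 0.105 and 0.224 CPM, counts scaled to the library total. This limit reflects counting error alone. PRDM16 had 2, 0 and 1 counts in IR+NC-LV against 14, 10 and 8 in IR+PR-LV, so the groups matched their labels in direction. These counts were few in both groups, and the size of the PRDM16 increase cannot be judged well from them. The libraries expressed epithelial markers, with a summed level of the 7 genes between 2282 and 2755 TPM, a level scaled to gene length and library total, though CDH1 (E-cadherin) was at only 0.249 to 0.581 TPM. CDH2 (N-cadherin), also counted in this sum, was at 217 to 247 TPM. Of 9 proximal tubule markers, PAX8 and GGT1 carried most of the sum of 189 to 237 TPM, while LRP2 and HNF4A, which define the mature segment, had 3 and 4 counts in all. Of 7 fibroblast markers, LUM carried most of the sum of 106 to 151 TPM, and COL1A1 averaged 10.5 TPM. PDGFRB and COL3A1 had 194 and 114 counts, and DCN, PDGFRA and COL1A2 had 22, 19 and 7 counts. The 5 endothelial markers summed to at most 0.640 TPM. The 6 leukocyte markers summed to 188 to 206 TPM in IR+NC-LV against 160 to 175 TPM in IR+PR-LV. Nearly all came from CD68, a lysosomal protein that other cells also make. For CD68 the groups overlapped in CPM, at 88.5 to 106 CPM in IR+NC-LV against 81.9 to 90.6 CPM in IR+PR-LV. Its log2 fold change was -0.22 (SE 0.08, edgeR adjusted p = 0.405). CSF1R averaged 4.76 TPM, LYZ and CD79A had 45 and 14 counts, and PTPRC and CD3E had 10 and 2 counts. The part of these differences in the results was not tested.

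Ligand transcripts exceeded receptor transcripts in every library. On the TPM scale, which divides by gene length, the 5 ligands summed to 765 to 941 TPM in IR+NC-LV against 819 to 912 TPM in IR+PR-LV. The 3 receptors summed to 88.5 to 97.3 TPM and 88.3 to 94.2 TPM. The ratio of the sums was 9.13 ± 0.51 (SD, n = 3) in IR+NC-LV against 9.38 ± 0.57 (SD, n = 3) in IR+PR-LV, and the groups overlapped. In bulk RNA, fewer expressing cells and less RNA per cell cannot be told apart.

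The 8 members covered a wide span of levels and kept 1 order. EREG averaged 478 TPM over the 6 libraries (402 to 563), at rank 294 among the 28831 genes with any count. HBEGF followed at 180 TPM (172 to 185), AREG at 129 TPM (123 to 136) and EGFR at 63.0 TPM (60.1 to 67.9). TGFA averaged 41.7 TPM (37.9 to 46.3), ERBB2 27.6 TPM (25.2 to 31.3) and BTC 17.4 TPM (15.1 to 19.7). ERBB3 was lowest at 0.765 TPM (0.645 to 0.945). The ranges of no neighbours in this order overlapped. The narrowest step, from HBEGF to AREG, was 1.39-fold and lay between 1.31-fold and 1.47-fold within a library. The widest, from BTC to ERBB3, was 23.2-fold and lay between 17.9-fold and 27.0-fold.

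**Figure D1:**
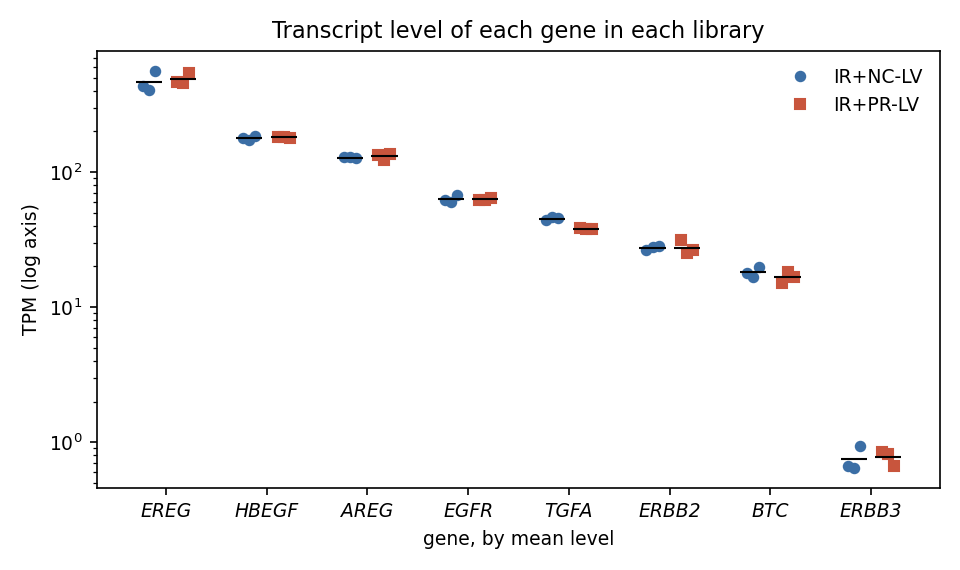
TPM of each member in each library on a log axis, with circles for IR+NC-LV, squares for IR+PR-LV and a bar at each group mean (n = 3). EREG lies highest at 402 to 563 TPM and ERBB3 lowest at 0.645 to 0.945 TPM. Of the 8 genes TGFA alone has groups that do not overlap, and in CPM 17% of all tested genes have such groups.

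EGFR, the receptor that binds all 5 ligands, made up 69.1% ± 1.0 of the receptor TPM in IR+NC-LV against 68.9% ± 2.6 in IR+PR-LV (SD, n = 3). Its TMM-normalized CPM was 217, 215 and 223 in IR+NC-LV against 221, 224 and 225 in IR+PR-LV. The groups overlapped, since IR+NC-LV replicate 3 lay above IR+PR-LV replicate 1. The log2 fold change of IR+PR-LV over IR+NC-LV was 0.03 (SE 0.05, edgeR adjusted p = 0.860). The 95% interval of the difference ran from -5.78% to 11.0%, the narrowest of the 3 receptors. Leaving out single libraries gave log2 fold changes from 0.020 (IR+NC-LV replicate 2) to 0.049 (IR+NC-LV replicate 3).

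ERBB2, the partner receptor without a ligand of its own, had 51.9, 55.5 and 52.2 CPM in IR+NC-LV against 62.2, 50.6 and 51.6 CPM in IR+PR-LV. IR+PR-LV replicate 1 was the highest of the 6 libraries and the other IR+PR-LV libraries were the lowest. ERBB2 had a log2 fold change of 0.04 (SE 0.09, edgeR adjusted p = 0.903), with an interval of -10.8% to 18.4%. Without IR+PR-LV replicate 1 it was -0.06. EGFR stood 2.30-fold above ERBB2 on the TPM scale in both groups (SD 0.11 in IR+NC-LV against 0.27 in IR+PR-LV).

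ERBB3, which recruits PI3-kinase, had only 21, 26 and 23 counts in IR+NC-LV against 27, 44 and 23 in IR+PR-LV. These corresponded to 1.25, 1.23 and 1.66 CPM and to 1.61, 1.57 and 1.25 CPM, and the groups overlapped. For ERBB3 the log2 fold change was 0.12 (SE 0.22, edgeR adjusted p = 0.883). The interval of -23.4% to 53.5% was the widest of the 8 members. As each library was left out in turn, the log2 fold change lay between 0.036 (IR+NC-LV replicate 2 omitted) and 0.25 (IR+NC-LV replicate 3 omitted). ERBB3 shares 948 bases (15.5%) of its exons with LOC105369782 on the other strand, which had 7 counts in all.

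EREG, epiregulin, supplied most of the ligand transcripts, with 55.5% ± 3.9 of ligand TPM in IR+NC-LV against 57.1% ± 2.1 in IR+PR-LV (SD, n = 3). Its CPM was 618, 580 and 746 in IR+NC-LV against 668, 665 and 768 in IR+PR-LV. Replicate 3 was the highest library of each group, and the groups overlapped. EREG had a log2 fold change of 0.11 (SE 0.10, edgeR adjusted p = 0.733), with an interval of -7.43% to 26.2%. Without IR+NC-LV replicate 3 it was 0.23, at an edgeR adjusted p of 0.445, and without IR+NC-LV replicate 2 it was 0.04.

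HBEGF, the heparin-binding ligand, made up 21.5% ± 1.6 of ligand TPM in IR+NC-LV against 21.2% ± 1.4 in IR+PR-LV (SD, n = 3). Its CPM was 130, 127 and 125 in IR+NC-LV against 134, 134 and 129 in IR+PR-LV. IR+PR-LV replicate 3 lay just below the highest IR+NC-LV library. Between the groups, HBEGF had a log2 fold change of 0.06 (SE 0.06, edgeR adjusted p = 0.767), with an interval of -4.66% to 13.3%.

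AREG, amphiregulin, made up 15.4% ± 1.7 of ligand TPM in IR+NC-LV against 15.3% ± 0.6 in IR+PR-LV (SD, n = 3). Its CPM was 48.6, 49.5 and 44.9 in IR+NC-LV against 51.3, 47.6 and 51.5 in IR+PR-LV. IR+PR-LV replicate 2 lay inside the range of IR+NC-LV. The log2 fold change was 0.07 (SE 0.07, edgeR adjusted p = 0.777), with an interval of -6.36% to 17.6%. Leaving out IR+NC-LV replicate 3 gave 0.031 and leaving out IR+PR-LV replicate 2 gave 0.11. EREG, its neighbour on chromosome 4, held 478 TPM against 129 TPM for AREG.

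**Figure D2:**
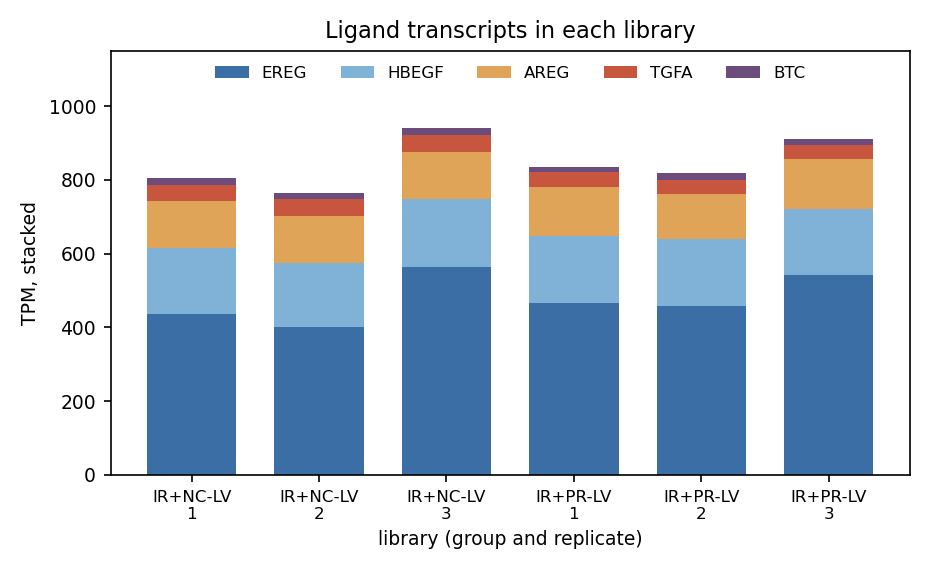
TPM of the 5 ligands stacked in each of the 6 libraries. EREG forms the largest block in every library, at 52.5% to 59.9% of the sum, and the total is highest in replicate 3 of each group.

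TGFA, transforming growth factor alpha, was the only member whose groups did not overlap. Its CPM was 59.1, 63.5 and 57.3 in IR+NC-LV against 52.6, 52.2 and 50.9 in IR+PR-LV, so every IR+PR-LV library lay below every IR+NC-LV library. Over all tested genes, 17% had groups that did not overlap in CPM, 9.54% with IR+PR-LV lower. The log2 fold change of TGFA was -0.21 (SE 0.07), or -13.6% with an interval of -22.3% to -3.87%. The unadjusted edgeR p was 0.0126 and the adjusted p was 0.360, so TGFA did not pass the threshold. An exact 2-sided permutation test gave p = 0.1, the smallest that 3 against 3 libraries allow. Its share of ligand TPM was 5.45% ± 0.60 in IR+NC-LV against 4.47% ± 0.27 in IR+PR-LV (SD, n = 3). The groups did not overlap in this share, which restates the same TGFA values. TGFA relative to EREG did overlap, at 8.10% to 11.5% in IR+NC-LV against 6.98% to 8.30% in IR+PR-LV. The unadjusted p of TGFA stayed under 0.05 in 11 of the 12 other settings tried and was 0.0713 without IR+NC-LV replicate 2, the highest library.

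BTC, betacellulin, was the least abundant ligand, at 2.18% ± 0.07 of ligand TPM in IR+NC-LV against 1.95% ± 0.23 in IR+PR-LV (SD, n = 3). Its CPM was 23.7, 22.5 and 24.3 in IR+NC-LV against 20.1, 24.5 and 21.9 in IR+PR-LV. IR+PR-LV libraries were both the highest and the lowest. BTC had a log2 fold change of -0.08 (SE 0.09, edgeR adjusted p = 0.809), with an interval of -18.3% to 9.81%. It was -0.013 without IR+PR-LV replicate 1 and -0.16 without IR+PR-LV replicate 2.

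Across the family, 0 of 8 members passed the adjusted threshold of 0.05 in edgeR, and 0 of 8 did so in DESeq2. Over all 15340 tested genes, 0.0652% passed it in edgeR, with 0.0196% above and 0.0456% below IR+NC-LV. At an unadjusted p under 0.05, 1 of 8 members was counted, TGFA, against 10.5% of all tested genes. The groups did not overlap for 1 of 8 members, against 17% of all tested genes. By direction, the unadjusted share was 4.55% higher and 5.97% lower, and the share without overlap was 7.46% higher and 9.54% lower. Thus the members' counts were close to the background. The log2 fold change was above 0 for 6 members and below 0 for 2, and above 0 for 51.1% of all tested genes. The intervals of all 6 positive members held 0. The median was 0.05 for the members beside 0.0044 over all tested genes. The median size of the log2 fold change was 0.07 for the members and 0.10 for all tested genes.

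**Figure D3:**
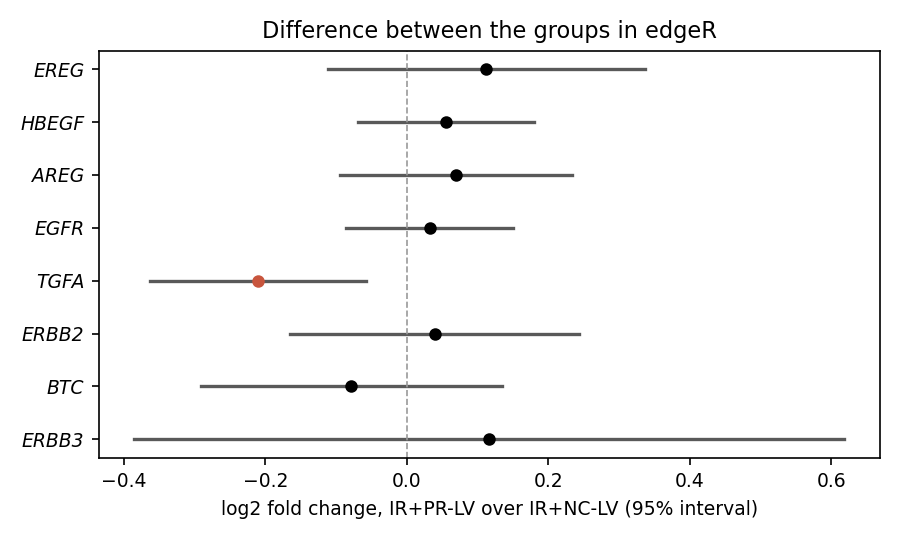
Log2 fold change of IR+PR-LV over IR+NC-LV from edgeR for each member, with its 95% interval as a line and TGFA, the only member at an unadjusted p under 0.05, in red. The TGFA interval lies below 0, the other 7 intervals hold 0, and the ERBB3 interval is the widest.

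The members varied among libraries in different ways. EREG spanned the 6 libraries from -0.21 to 0.19 in log2 CPM around its mean, with replicate 3 highest in both groups. EGFR spanned only -0.04 to 0.03. HBEGF was the member nearest to EGFR in this pattern, with a root mean square difference of 0.0386, and TGFA differed from EGFR by 0.135. Among 13968 genes with a mean of at least 1 CPM, the genes nearest to EGFR were NUP205 (0.0082), TGS1 (0.0101) and NSRP1 (0.0113), with a median of 0.127 over all genes. The nearest to EREG were TARS3 (0.0372), LINC00938 (0.0412) and C14orf39 (0.0415), with a median of 0.195. The distances are not scaled by the spread of a gene, so any gene that varies little lies near EGFR. These distances describe 6 libraries and carry no test.

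**Figure D4:**
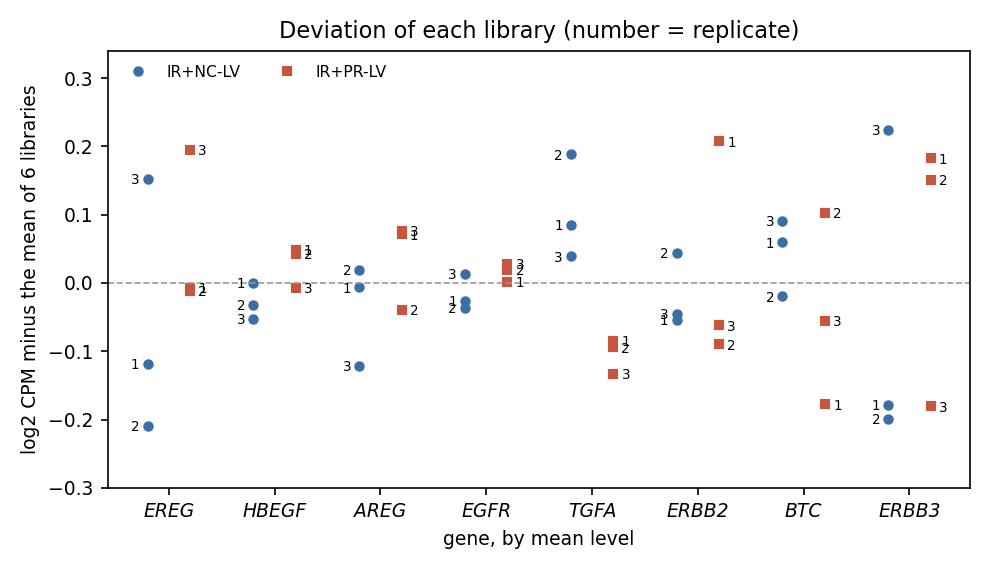
Log2 CPM of each member in each library minus the mean of the 6 libraries, numbered by replicate, with circles for IR+NC-LV and squares for IR+PR-LV. Values run from -0.21 to 0.22, the replicates mix for every member but TGFA, and replicate 3 lies highest for EREG in both groups.

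Antisense transcripts shared exon bases with EGFR. LOC105375284 (chromosome 7, 54992961 to 55019208, minus strand) shares 192 exon bases (1.68%) with EGFR, and its exon from 55016561 to 55019208 covers the whole upstream window of EGFR printed above. It had 45, 42 and 29 counts in IR+NC-LV against 16, 19 and 16 in IR+PR-LV. All 3 IR+PR-LV libraries lay below the IR+NC-LV libraries, at 0.547 TPM against 1.52 TPM. Over all tested genes, 17% had groups that did not overlap in CPM, 9.54% with IR+PR-LV lower. The log2 fold change of LOC105375284 was -1.45 (SE 0.23, edgeR adjusted p = 0.0755), short of the threshold, while DESeq2 gave an adjusted p of 0.0373. This transcript was chosen after its values had been seen. EGFR-AS1, inside the gene, shares 186 bases with it and had 9 to 14 counts a library, with a log2 fold change of -0.20 (SE 0.29, edgeR adjusted p = 0.873). The EGFR-AS1 groups did not overlap either, at 0.596, 0.570 and 0.648 CPM in IR+NC-LV against 0.536, 0.501 and 0.543 CPM in IR+PR-LV. Whether the counting used strand is not given in the sources used here, and without strand the reads of such a pair cannot be told apart in the shared bases. ERBB2 shares 151 bases (2.36%) with MIEN1, whose log2 fold change was -0.05 (SE 0.11, edgeR adjusted p = 0.910).

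Of 76 other genes of the pathway in 5 lists, 69 were tested. In edgeR 0 of them passed the adjusted threshold, in DESeq2 2 did, of 174 over all genes, and in edgeR without the filter on low counts 3 did, of 342 over all genes. At an unadjusted p under 0.05, 9 were counted, 2 with a positive and 7 with a negative log2 fold change, against 10.5% of all tested genes, 4.55% higher and 5.97% lower. The median log2 fold change of the 69 was -0.02.

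Of the receptor and ligands outside the 8 members, 3 of 7 were tested and none had an unadjusted p under 0.05. NRG1, a neuregulin that binds ERBB3 and ERBB4, was the most abundant at 32.4 ± 2.0 TPM in IR+NC-LV against 33.4 ± 0.6 TPM in IR+PR-LV (SD, n = 3), with a log2 fold change of 0.09 (SE 0.05, edgeR adjusted p = 0.616). EGF itself was at 4.26 and 3.93 TPM in the groups, with a log2 fold change of -0.08. EPGN, epigen, was at 0.840 and 1.07 TPM, with a log2 fold change of 0.43 (SE 0.33) that was 0.71 without IR+PR-LV replicate 1 and 0.24 without IR+PR-LV replicate 2. In the former case the unadjusted edgeR p was 0.0184 and the adjusted p was 0.213. ERBB4, NRG2, NRG3 and NRG4 did not pass the filter, with 15, 26, 1 and 34 counts over the 6 libraries, and were named after their values had been seen. The receptor transcripts were thus nearly all EGFR and ERBB2.

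Of 10 shedding genes, 9 were tested, 0 passed the threshold in edgeR and 1 had an unadjusted p under 0.05, against 10.5% of all tested genes. It was ADAM9, a membrane metalloprotease, at 18.4 ± 5.5 TPM in IR+NC-LV against 9.94 ± 0.86 TPM in IR+PR-LV (SD, n = 3). The groups did not overlap in CPM, as for 17% of all tested genes, with raw counts of 781, 897 and 930 against 444, 837 and 570. Its log2 fold change was -0.83 (SE 0.16, edgeR adjusted p = 0.107), and the adjusted p was 3.77e-05 in DESeq2. A second listed copy of ADAM9 had 0 counts. ADAM10, a protease known to release EGF and BTC, had a log2 fold change of 0.13 (SE 0.06, edgeR adjusted p = 0.506). RHBDL2, an intramembrane protease, had -0.21, and the abundant ADAM15 and FRMD8, a partner of the iRhom proteins, had 0.06 and 0.02.

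Of 16 genes that inhibit, dephosphorylate, ubiquitinate, sort or bind the receptors, 15 were tested and 0 passed the threshold in edgeR. Only 1 had an unadjusted p under 0.05, against 10.5% of all tested genes. It was LRIG2, of the leucine-rich repeat family that binds the receptors, with a log2 fold change of -0.24 (SE 0.07, edgeR adjusted p = 0.327). Whether LRIG2 inhibits the receptors in these cells was not tested. RNF41, a ubiquitin ligase for ERBB3, had -0.13 and CBLB, a ligase for EGFR, had -0.20. The most abundant were the phosphatase PTPN1 and the endosomal sorting proteins HGS and TSG101, at -0.01, -0.03 and -0.10.

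All 27 adaptors and signal transducers were tested, 0 passed the threshold in edgeR and 3 had an unadjusted p under 0.05, against 10.5% of all tested genes. PIK3R1, the regulatory subunit of PI3-kinase, had a log2 fold change of -0.23 (SE 0.08, edgeR adjusted p = 0.397). PTPN11, the phosphatase SHP2, was the most abundant at 292 ± 9 TPM in IR+NC-LV against 313 ± 10 TPM in IR+PR-LV (SD, n = 3), with a log2 fold change of 0.14 (SE 0.05, edgeR adjusted p = 0.416). HRAS had 23, 23 and 47 counts in IR+NC-LV against 17, 198 and 140 in IR+PR-LV. IR+PR-LV replicate 1 was the lowest of all 6 libraries, the groups overlapped, and the difference was 182% (edgeR adjusted p = 0.463, SE 0.64 on the log2 scale), with a log2 fold change of 2.12 without IR+NC-LV replicate 3. A second listed copy of HRAS had 0 counts. NRAS and GRB2, also abundant, had 0.12 and 0.11.

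Of 16 genes known to respond to ERK signalling, 15 were tested, 0 passed the threshold in edgeR and 4 had an unadjusted p under 0.05, all lower in IR+PR-LV, against 5.97% of all tested genes in that direction and 10.5% in either. The median log2 fold change of the list was -0.09, beside 0.0044 over all tested genes. DUSP6, a phosphatase that acts on ERK, was at 21.6 ± 2.2 TPM in IR+NC-LV against 15.9 ± 0.3 TPM in IR+PR-LV (SD, n = 3), with a log2 fold change of -0.39 (SE 0.08, edgeR adjusted p = 0.160). EGR1, an immediate early transcription factor, had 110, 130 and 133 counts against 85, 89 and 62, and a log2 fold change of -0.94 (SE 0.23). Its adjusted p was 0.224 in edgeR and 0.0335 in DESeq2. The feedback inhibitors SPRY2 and SPRY4 had -0.23 (edgeR adjusted p = 0.401) and -0.21 (edgeR adjusted p = 0.457), and SPRY4 was named after its values had been seen. The most abundant genes of the list, PHLDA1, FOSL1 and CCND1, had -0.09, 0.06 and 0.02.

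**Figure D5:**
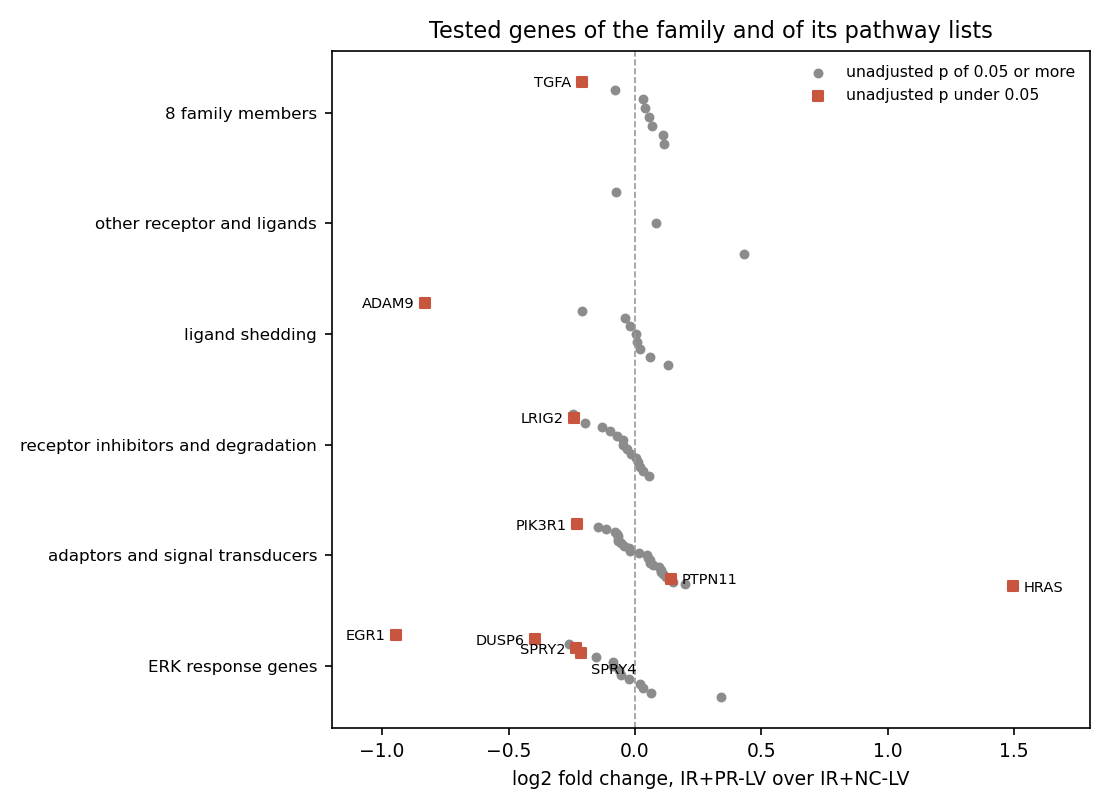
Log2 fold change of IR+PR-LV over IR+NC-LV from edgeR for the 8 members and the tested genes of the 5 pathway lists, with squares and names for an unadjusted p under 0.05. The members lie between -0.21 and 0.12, HRAS lies highest at 1.496, and the 4 named ERK response genes lie below 0.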

How the data were processed

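The 6 libraries were made from poly(A)-selected RNA. The submitters' processing notes name CASAVA, featureCounts 2.0.1, DESeq2 1.16.1 and hg38, and the aligner and strand setting are not given in the sources used here. The authors deposited, per gene and library, raw read counts, TPM and FPKM values. The deposited TPM and FPKM values followed exactly from the counts, gene lengths and totals. Levels were read from the deposited TPM.

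Counts were compared with edgeR 4.0.16 (R 4.3.3): filterByExpr (minimum count 10, minimum total 15), TMM factors of 0.981 to 1.04, the quasi-likelihood test without covariates, and Benjamini-Hochberg adjustment over all 15340 tested genes and gene copies at 0.05. The common biological coefficient of variation was 0.106. CPM values were TMM-normalized. The procedure was tested on simulated data. No libraries of a group agreed within sampling noise. The labels do not say that the libraries came from separate cultures, so p-values measure only the spread between these libraries, which may be technical. Groups followed the labels.

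The members and lists were chosen with earlier results of these data known, and nothing here is independent support for a pattern seen in them. The text names all members and PRDM16. From each pathway list it names the genes past the threshold, the 3 with the lowest p and the 3 with the highest TPM, and for EGFR and EREG the 3 genes nearest in log2 CPM, with exceptions stated. A gene with several listed copies entered by the copy with the most counts. Alternatives were DESeq2 1.42.0, upper-quartile and RLE normalization, omitting the filter, a replicate block, leaving out single libraries, CPM in place of TPM, and summed gene copies, the last chosen after seeing the data.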

Additional observations from a re-analysis of the deposited data

How the results depend on the processing

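No member passed the adjusted threshold under any alternative. The number of genes past it over all genes was 10 and became 342 without the filter, 174 with DESeq2 and 1 to 28 as single libraries were left out (28 without IR+NC-LV replicate 2, 16 without IR+NC-LV replicate 3, 1 without IR+NC-LV replicate 1 and 1 without IR+PR-LV replicate 3). Of the pathway lists, 3 genes passed without the filter (ADAM9, HRAS and EGR1, at log2 fold changes of -0.82, 1.51 and -0.93) and 2 with DESeq2 (ADAM9 and EGR1, at -0.83 and -0.94). LOC105375284 passed without the filter (-1.44) and with DESeq2 (-1.45). The cause was not tested. Members at an unadjusted p under 0.05 numbered 0 to 2 as single libraries were left out (2, TGFA and EREG, without IR+NC-LV replicate 3). The leave-one-out log2 fold changes crossed 0 for ERBB2 (-0.058 to 0.096), EGF (-0.182 to 0.018), ADAM15 (-0.060 to 0.152), FRMD8 (-0.076 to 0.069), PTPN1 (-0.057 to 0.016), HGS (-0.164 to 0.060), FOSL1 (-0.012 to 0.123), CCND1 (-0.019 to 0.057) and MIEN1 (-0.141 to 0.011). CPM in place of TPM, which weights long transcripts more, gave ligand shares of 72.2% for EREG, 14.02% for HBEGF, 6.05% for TGFA, 5.27% for AREG and 2.46% for BTC, and a ligand to receptor ratio of 3.38.

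The replicate number as a block left 3 genes past the threshold. Same-numbered libraries correlated in their deviations by -0.0088, 0.0514 and 0.0706, and 3 of 6 libraries correlated best with their own number, so the numbers were not taken as pairs. Under the block TGFA had -0.21 (adjusted p = 0.384). All members passed the filter, so a comparison of members below it could not be made. Of 522 values recomputed, 480 were classed as unchanged. Counts of genes were so classed if they equalled the main count or lay within 1.5-fold of it. Other values were so classed if they kept their direction and side of the threshold or moved by less than the spread between replicates.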
